A study of Mus musculus with 9 samples.

Results

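The 63 genes described here encode the carrier proteins of the mitochondrial inner membrane and the proteins that bring other proteins into mitochondria. They are every gene whose single symbol in the array's probe annotation begins with Slc25a, Timm or Tomm, or with Ucp and a digit, out of 15096 genes with a single symbol. The carriers number 38 and the import proteins 25. They were read by 64 of the 23040 spots, and the 2 probes of Tomm70a were averaged. The study, on genetic differences in expression within and between individuals, set the inbred strain SJL/J against the inbred strain C57BL/6J in whole brain, in kidney and in liver. All mice were males aged 8 weeks. RNA of 5 mice of a strain was pooled in equal amounts for each tissue, and the SJL/J pool carried the dye Alexa Fluor 647 and the C57BL/6J pool Alexa Fluor 555. Each tissue has 3 arrays, which are technical replicates of the same pair of pools with no dye swap, so each SD and p-value below covers the spread between hybridisations and not the spread between mice. A dye effect of a probe and a strain difference cannot be told apart within a tissue. One tissue field of the SJL/J channel reads brain on the kidney and liver arrays, and the tissue in the titles was used.

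Carriers of the Slc25 family exchange metabolites, nucleotides and cofactors across the inner membrane, and the uncoupling proteins of the same family let protons back into the matrix. Nearly all mitochondrial proteins are made in the cytosol: the Tomm proteins form the entry gate of the outer membrane, small Timm chaperones guide hydrophobic proteins through the space between the membranes, and larger Timm complexes pass proteins through the inner membrane or insert them into it. The carriers are themselves clients of the small Timm chaperones and of the Timm22 complex. In liver these proteins serve fatty acid oxidation, the urea cycle and gluconeogenesis, in kidney the energy supply of tubular transport, and in brain the supply of synapses.

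The values are log ratios, taken as log2 of SJL/J over C57BL/6J, so a value above 0 means more signal in SJL/J; the base and the direction are the likely reading of the labels and are not stated there. Nnt, of which C57BL/6J is known to carry a deletion, was above 0 on 9 of 9 arrays, between 0.15 and 1.06. The table holds no signal levels, so the tissues could not be checked against the levels of their marker genes and dim spots could not be left out. Arrays of a tissue correlated at 0.73 to 0.78 over all genes, except brain replicate 3, which correlated at 0.36 and 0.42 with the other brain arrays. Named probes at probe numbers that are multiples of 8 had a median of -0.16 on the brain arrays, -0.34 on the kidney arrays and -0.22 on the liver arrays, against 0.02, 0.06 and 0.00 for the others. The probes of 9 members lie there: Slc25a3, Slc25a13, Slc25a15, Slc25a24, Slc25a29, Slc25a38, Tomm40, Tomm7 and Timm8b. Lines of 24 consecutive probe numbers also shared shifts, and values with line and column medians removed on each array are given where they end a call in a tissue, and for the calls that only they gave near the end. How far either pattern set the values of the members was not tested.

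A member was called where limma's Benjamini-Hochberg adjusted p over all 15096 genes was below 0.05, on the values as deposited unless said otherwise. In liver, 18 members were lower and 3 higher in SJL/J, whereas 14.4% of all genes were called lower and 10.1% higher. In kidney, 10 members were higher and 9 lower, beside 13.5% and 13.9% of all genes. In brain 6 were higher and 6 lower, beside 7.55% and 9.61% of all genes. The median log2 ratio of the carriers was -0.20 in liver, 0.00 in kidney and 0.00 in brain, and that of the import proteins was -0.28, 0.00 and -0.04. Over all genes the medians were -0.02, 0.03 and 0.01. In liver 46 of the 63 members lay below 0, and the median over all members was -0.21 on each of the 3 liver arrays. Removing line and column medians left 3 higher and 19 lower in liver, but turned the split to 5 higher and 10 lower in kidney and to 4 higher and 10 lower in brain. The share of all genes called was smaller on that scale than as deposited in each tissue. Its split into higher and lower is not given here, so whether the turn is particular to the members was not tested. The brain calls rest on a spread shared with the other tissues: with the brain arrays alone limma called 0 members in brain and 3.07% of all genes, and 15 members (23.8%) had an unadjusted p below 0.05, beside 22.7% of all genes. Without brain replicate 1 the brain calls numbered 4, without replicate 2 they numbered 2, and without replicate 3 they numbered 11. The share of all genes called in brain also fell without replicate 1 or 2, and it rose without replicate 3. The falls were therefore not particular to the members.

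**Figure D1:**
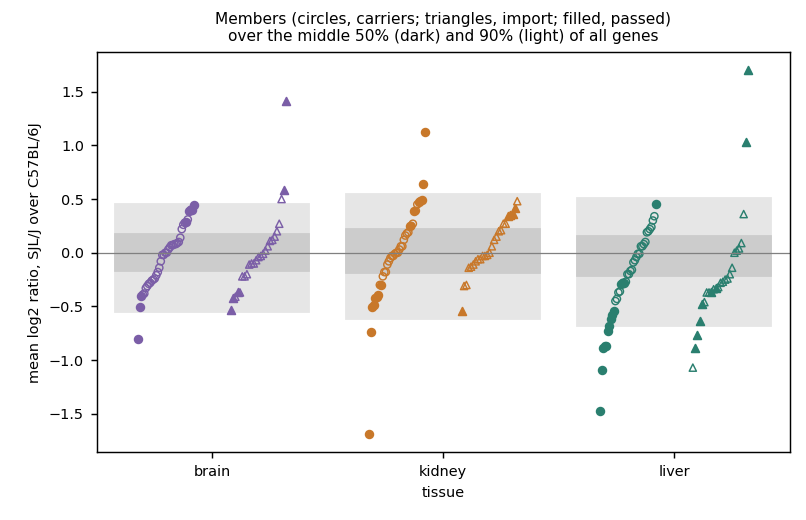
Mean log2 ratio (SJL/J over C57BL/6J, vertical axis) of each member in each tissue (horizontal axis), with carriers as circles and import proteins as triangles, filled where limma's adjusted p was below 0.05, over grey boxes from the 25 to the 75 (dark) and from the 5 to the 95 (light) percentile of all genes. The liver points lie mostly below 0 (46 of 63), with Timm50 and Timm10 above the boxes and several members below them, Slc25a20 the lowest.

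The promoter stretches of 4 members are given for reference to the values that follow: Slc25a20, Tomm22 and Timm10 were called in liver alone and Ucp1 in kidney alone, and each stayed called with any array of that tissue left out. Other members met the same rule and are not shown, among them Slc25a5, whose stretch holds none of the letters marked below. The stretches shown are RefSeq's GRCm38.p6 sequences of the 250 bases before the gene's start, 5′ to 3′ on the gene's own strand. The build follows C57BL/6J, and SJL/J sequence was not used here. Capitals mark the letters CCGGAAG on either strand, the core of the motif of GABPA, a regulator of nuclear genes for mitochondrial proteins; in Tomm22 a match on each strand overlaps the other in 1 capital run.
Slc25a20 (chr9:108661886-108662135, plus strand): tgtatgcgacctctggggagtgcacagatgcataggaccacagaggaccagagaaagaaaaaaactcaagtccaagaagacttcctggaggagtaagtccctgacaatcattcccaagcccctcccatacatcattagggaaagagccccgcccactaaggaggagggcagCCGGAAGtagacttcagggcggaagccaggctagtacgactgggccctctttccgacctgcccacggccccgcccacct
Tomm22 (chr15:79670618-79670867, plus strand): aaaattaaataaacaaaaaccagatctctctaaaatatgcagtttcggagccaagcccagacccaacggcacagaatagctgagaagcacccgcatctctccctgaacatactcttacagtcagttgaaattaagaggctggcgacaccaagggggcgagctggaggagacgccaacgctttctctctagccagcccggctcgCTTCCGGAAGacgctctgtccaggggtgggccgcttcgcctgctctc
Timm10 (chr2:84826771-84827020, plus strand): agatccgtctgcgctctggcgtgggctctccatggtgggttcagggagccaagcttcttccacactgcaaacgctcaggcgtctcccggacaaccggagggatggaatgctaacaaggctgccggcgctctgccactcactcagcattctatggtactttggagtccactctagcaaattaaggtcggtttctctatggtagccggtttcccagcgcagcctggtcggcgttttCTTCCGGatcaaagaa
Ucp1 (chr8:83290098-83290347, plus strand): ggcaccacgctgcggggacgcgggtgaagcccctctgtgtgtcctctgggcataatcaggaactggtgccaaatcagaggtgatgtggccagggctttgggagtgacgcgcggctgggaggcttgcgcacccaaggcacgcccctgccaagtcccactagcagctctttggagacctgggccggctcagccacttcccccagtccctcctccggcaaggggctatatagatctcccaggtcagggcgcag

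RefSeq's table held a stretch for 52 of the 63 members. CCGGAAG stood in the 250 bases of 13 of those 52, which is 25%, and of 7.83% of the 27025 genes in the table, counting a gene once where any of its starts had it. The share was 36.4% (8 of 22) for the import proteins and 16.7% (5 of 30) for the carriers. Among the 17 members with a stretch that were lower in liver it was 23.5% (4 of 17), close to that of all members. The letters GCGCATGCG of the factor NRF1 stood in 1 of the 52 (1.92%) and in 1.64% of all genes, and the letters AAGGTCA of the ERR receptors in 1 of the 52 (1.92%) and in 4.7% of all genes, each on either strand; none of the 3 motifs contains another. The GABPA letters begin 79 bases before the start in Slc25a20, 47 and 44 in Tomm22 and 16 in Timm10, and the liver ratio was below 0 for Slc25a20 and Tomm22 and above 0 for Timm10. Ucp1 holds none of the 3, and neither does Slc25a5, whose stretch is not printed. A match describes the letters and does not show binding.

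The acylcarnitine carrier Slc25a20, which brings long-chain fatty acids as acylcarnitines into the matrix for oxidation, had the lowest liver ratio of all members. On the 3 liver arrays its log2 ratio was -1.13, -2.05 and -1.22. Brain gave 0.70, 0.11 and 0.04 and kidney -0.07, 0.23 and 0.02. Every liver array lay below every brain and kidney array. The liver mean was -1.47 ± 0.50 (SD, n = 3 arrays; limma adjusted p = 1.60e-04), a 2.77-fold lower signal in SJL/J, and it stayed called with each liver array left out and with line and column medians removed (-1.17, limma adjusted p = 9.02e-04).

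Other genes of the carnitine shuttle and of long-chain fatty acid oxidation were taken from a written list of which 10 were measured. In liver 7 were lower and 0 higher, the median was -0.59, and 1 of the 10 lies at a multiple of 8. Hadhb, a subunit of the trifunctional protein of fatty acid oxidation, averaged -1.76 ± 0.30 (SD, n = 3), and Cpt2, which returns the acyl group to coenzyme A on the matrix side, -1.56 ± 0.23. Crot and Crat, which move acyl groups between coenzyme A and carnitine, averaged -1.59 ± 0.85 and -0.93 ± 0.33, and Crot lies at a multiple of 8. With line and column medians removed 4 of the 10 stayed lower and 1 was higher. In kidney 2 of the 10 were higher and none lower, and in brain 1 was lower. The shares called were 70% in liver, 20% in kidney and 10% in brain, beside 24.5%, 27.4% and 17.2% of all genes. The hepatocyte markers ran the other way in liver: 6 of 8 measured were higher and none lower, with a median of 0.81 and all 8 above 0. Alb, the serum albumin gene, averaged 1.06 ± 0.30 there. In bulk tissue fewer cells of a type and less RNA per cell cannot be told apart.

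The adenine nucleotide and phosphate carriers hold the ATP and ADP exchangers Slc25a4, Slc25a5 and Slc25a31, the phosphate carrier Slc25a3, and the ATP-Mg and phosphate carriers Slc25a23, Slc25a24 and Slc25a25 with their relative Slc25a54. In liver 5 of these 8 were lower, none was higher, and the median was -0.56. Slc25a5, the more widely expressed exchanger, gave -0.50, -0.82 and -0.54 on the liver arrays, -0.20, -0.13 and 0.41 in brain and 0.11, 0.05 and 0.02 in kidney. The liver arrays lay below all others. Its liver mean was -0.62 ± 0.18 (SD, n = 3; limma adjusted p = 0.00393). Slc25a4, the exchanger of heart and muscle, gave -0.53, -1.46 and -0.60 in liver, so that replicate 2 lay apart. Its mean of -0.87 ± 0.52 (SD, n = 3) had a limma adjusted p of 0.0155, but of 0.134 without liver replicate 2 (mean -0.57) and of 0.111 with the medians removed (mean -0.48), since the median of its line in liver was -0.43. Probe sequences were not used here, so cross-hybridisation among these close relatives was not tested.

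Slc25a24 lies at a multiple of 8 and gave -1.16, -0.60 and -0.92 in liver, with a mean of -0.89 ± 0.28 (SD, n = 3; limma adjusted p = 9.28e-04). All its arrays in brain and kidney were below 0 too, between -0.74 and -0.08, with no call. With the medians removed its liver mean was -0.56 (limma adjusted p = 0.0187). Slc25a31, the exchanger of the germ line, was below 0 on 9 of 9 arrays, and its brain, kidney and liver means were -0.40 ± 0.05, -0.39 ± 0.08 and -0.58 ± 0.25 (SD, n = 3 each; limma adjusted p = 0.0198, 0.0142 and 0.00196). The brain call was lost with the medians removed (-0.25) and without brain replicate 1 or 2, and the kidney call with any kidney array left out (-0.42 to -0.35). Slc25a3, also at a multiple of 8, averaged -0.54 ± 0.18 in liver and lost its call with the medians removed (-0.28, limma adjusted p = 0.174) and without liver replicate 2 or 3. Slc25a23, Slc25a25 and Slc25a54 were called in no tissue, with liver means of 0.34, -0.45 and -0.20.

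Among the 7 carriers of cofactors and nucleotides, Slc25a16, which is linked to mitochondrial coenzyme A, had the lowest liver ratio. Its liver arrays gave -1.27, -1.04 and -0.97, with a mean of -1.09 ± 0.16 (SD, n = 3; limma adjusted p = 0.00537). Brain gave -0.52, -1.05 and 0.39 and kidney -0.23, 0.53 and -0.30, so that only brain replicate 2 overlapped the liver arrays, and neither tissue passed. Slc25a53, a carrier with no known substrate, had calls of opposite sign. Its ratio was -0.78, -0.42 and -1.01 in liver and 0.45, 0.42 and 0.55 in kidney, and -0.06, -0.08 and 0.34 in brain. No kidney array reached as low as any liver array. The liver mean was -0.73 ± 0.30 (limma adjusted p = 0.00145) and the kidney mean 0.47 ± 0.07 (SD, n = 3 each; limma adjusted p = 0.015), and the kidney call was lost with any kidney array left out (0.43 to 0.50) and with the medians removed (0.34). The other 5 members of the group, Slc25a26, Slc25a32, Slc25a33, Slc25a36 and Slc25a42, were called in no tissue. Slc25a33, a pyrimidine nucleotide carrier, depended on the processing: its means of 0.40, -0.03 and 0.24 in brain, kidney and liver became -0.77, -0.70 and -0.70 with the medians removed.

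**Figure D2:**
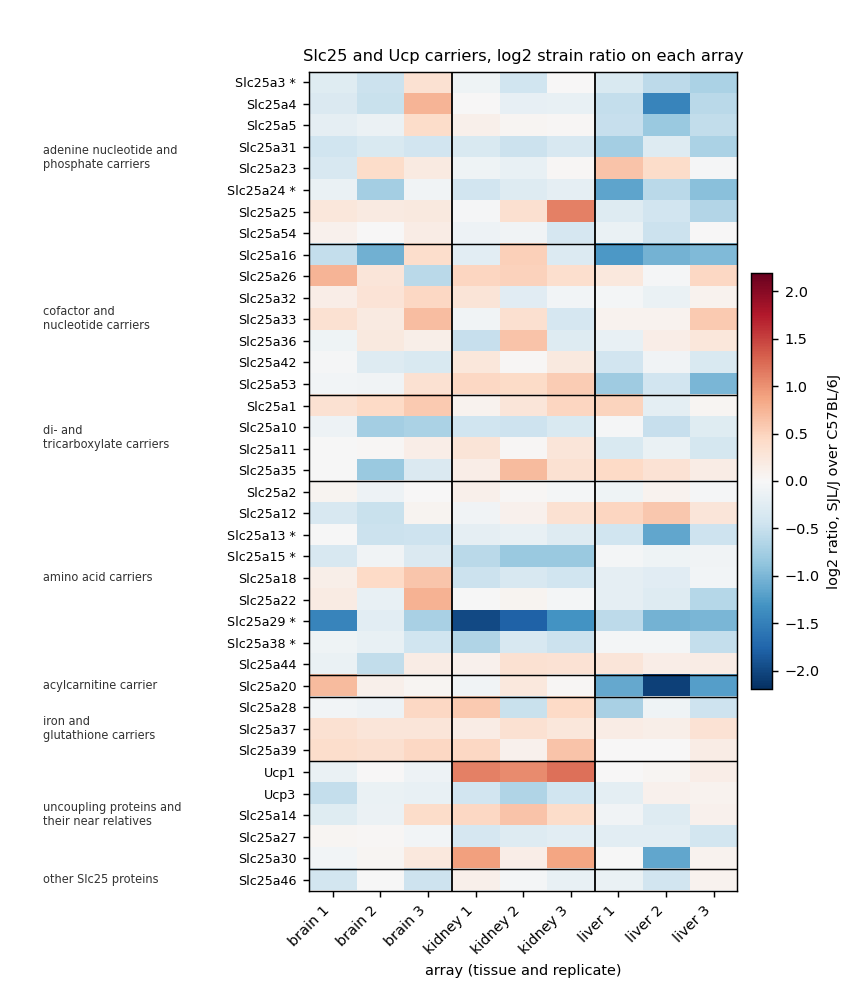
Log2 ratio (colour, SJL/J over C57BL/6J) of the 38 carriers (rows, by role) on each of the 9 arrays (columns, by tissue and replicate); an asterisk marks a probe at a multiple of 8, and the colour scale ends at 2.2 on both sides. Slc25a20, Slc25a16 and Slc25a53 are blue on every liver array, Ucp1 is red on every kidney array, and Slc25a29 is blue on all 9.

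The 9 amino acid carriers include 4 at multiples of 8, and these 4 made 3 of the 4 kidney calls and both lower liver calls of the group. Slc25a29, a carrier of basic amino acids, gave -1.98, -1.78 and -1.31 in kidney, -1.45, -0.24 and -0.72 in brain and -0.57, -1.04 and -1.0 in liver. All 9 arrays were below 0, and every kidney array but replicate 3 was lower than all brain and liver arrays. The kidney, brain and liver means were -1.69 ± 0.34, -0.80 ± 0.61 and -0.87 ± 0.26 (SD, n = 3 each; limma adjusted p = 1.68e-04, 0.0189 and 0.00879). With the medians removed kidney kept its call at -1.49, liver kept it at -0.68, and brain lost it at -0.58 (limma adjusted p = 0.0658). The brain call was lost without brain replicate 1 (-0.48), and the liver call without liver replicate 2 or 3 (-0.79 and -0.80).

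Slc25a15, the ornithine carrier of the urea cycle, gave -0.59, -0.81 and -0.81 in kidney, with a mean of -0.74 ± 0.13 (SD, n = 3; limma adjusted p = 2.48e-04). In liver, the main site of that cycle, it gave -0.04, -0.10 and -0.08. It lies at a multiple of 8, and its kidney mean with the medians removed was -0.24 (limma adjusted p = 0.136). Slc25a38, a glycine carrier needed for haem synthesis and also at a multiple of 8, gave -0.67, -0.35 and -0.47 in kidney, with a mean of -0.49 ± 0.16 (SD, n = 3; limma adjusted p = 0.0109). That call was lost with the medians removed (-0.41) and without kidney replicate 1 or 3, while its liver mean went from -0.20 to a called -0.66 (limma adjusted p = 0.00653).

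Slc25a18, a glutamate carrier, had calls of opposite sign in brain and kidney. Brain gave 0.13, 0.44 and 0.61 and kidney -0.47, -0.35 and -0.44, with no overlap, and liver gave -0.20, -0.25 and -0.06. The brain mean was 0.39 ± 0.24 (limma adjusted p = 0.023) and the kidney mean -0.42 ± 0.06 (SD, n = 3 each; limma adjusted p = 0.0113). The brain call was lost without brain replicate 2 or 3 (0.37 and 0.28) and the kidney call without kidney replicate 1 or 3 (-0.39 and -0.41). The aspartate and glutamate carriers parted in liver: Slc25a12 averaged 0.45 ± 0.16 (SD, n = 3; limma adjusted p = 0.021) and Slc25a13, its counterpart in liver and at a multiple of 8, -0.68 ± 0.40 (SD, n = 3; limma adjusted p = 0.0055). Neither passed with the medians removed (0.41 and -0.32; limma adjusted p = 0.0585 and 0.152), and Slc25a12 also failed without liver replicate 1 or 2 (0.43 and 0.37). Slc25a2, Slc25a22 and Slc25a44 were called in no tissue, with means between -0.37 and 0.26.

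Of the 4 di- and tricarboxylate carriers, Slc25a10, the dicarboxylate carrier, was below 0 on 9 of 9 arrays. It gave -0.11, -0.74 and -0.69 in brain and -0.44, -0.45 and -0.34 in kidney. The means were -0.51 ± 0.35 in brain and -0.41 ± 0.06 in kidney (SD, n = 3 each; limma adjusted p = 0.0209 and 0.0376). The brain call was lost without brain replicate 2 or 3 (-0.40 and -0.43), and the kidney call with any kidney array left out (-0.44 to -0.39) and with the medians removed (-0.39). Slc25a1, which exports citrate for fatty acid synthesis, gave 0.33, 0.43 and 0.57 in brain, with a mean of 0.44 ± 0.12 (SD, n = 3; limma adjusted p = 0.038). That call was lost with any brain array left out (0.38 to 0.50) and with the medians removed (0.26). Slc25a11, the oxoglutarate carrier of the malate-aspartate shuttle, averaged -0.28 ± 0.13 in liver (SD, n = 3; limma adjusted p = 0.0442), a call lost with any liver array left out (-0.35 to -0.23). Slc25a35 was called in no tissue. A written list of enzymes around the malate-aspartate and citrate shuttles had 11 measured genes. It also holds Glud1, Gpd1, Gpd2 and Otc, which belong to neither shuttle. In liver 6 of the 11 were lower and 0 higher (median -0.42). Glud1, glutamate dehydrogenase, averaged -1.59 ± 0.08 and Gpd1, glycerol-3-phosphate dehydrogenase, -1.16 ± 0.38 (SD, n = 3). With the medians removed 3 of the 11 stayed lower, Glud1 (-1.44), Gpd1 (-0.98) and Otc (-0.64), and Mdh2 was higher (0.34). The calls of Mdh1 (-0.27), Got1 (-0.24) and Me1 (-0.32) were lost.

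All 3 carriers for iron and glutathione averaged above 0 in brain and in kidney. Slc25a39, which imports glutathione, gave 0.38, 0.36 and 0.45 in brain and 0.46, 0.10 and 0.62 in kidney, with means of 0.40 ± 0.05 and 0.39 ± 0.27 (SD, n = 3 each; limma adjusted p = 0.0241 and 0.0175). In liver it gave 0.01, 0.00 and 0.17. The brain call was lost with any brain array left out (0.37 to 0.42), and the kidney call without kidney replicate 1 or 3 (0.36 and 0.28). Slc25a37, the iron carrier mitoferrin of red cell precursors, was above 0 on 9 of 9 arrays, between 0.13 and 0.34, and averaged 0.29 ± 0.04 in brain and 0.25 ± 0.08 in kidney (SD, n = 3 each; limma adjusted p = 0.0374 and 0.0444). Both calls were lost with any array of their tissue left out and with the medians removed (0.27 and 0.16). Slc25a28, the mitoferrin of other tissues, was called in no tissue. Slc25a46, an outer membrane protein of the family, averaged -0.29, -0.03 and -0.16 in brain, kidney and liver with no call.

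The uncoupling proteins and their near relatives were all called in kidney, 3 higher and 2 lower of 5. Ucp1, the uncoupling protein by which brown fat makes heat, gave 1.11, 1.04 and 1.21 in kidney, -0.14, 0.01 and -0.12 in brain and 0.00, 0.04 and 0.14 in liver. Each kidney array lay above each of the other arrays. The kidney mean was 1.12 ± 0.09 (SD, n = 3; limma adjusted p = 8.62e-06), a 2.17-fold higher signal in SJL/J, and it stayed called under every alternative tried, with a mean of 1.07 to 1.16. Of 5 measured markers of white and brown fat cells, 3 were higher and 1 lower in kidney, their median being 0.42 and their range -2.27 to 0.78. Fabp4, the fatty acid binding protein of fat cells, averaged 0.78 ± 0.45, Cidea 0.52 ± 0.39 and Lep, leptin, 0.42 ± 0.19 (SD, n = 3). Adipoq, adiponectin, averaged -2.27 ± 0.08 and lies at a multiple of 8. With the medians removed Fabp4 alone stayed higher (0.67, limma adjusted p = 0.0121), Adipoq stayed lower (-1.61), and Cidea (0.33) and Lep (0.27) lost their calls. The part of fat around the kidney in the Ucp1 ratio was not tested.

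Slc25a30, a carrier first described in kidney, gave 0.90, 0.14 and 0.86 there, and its mean of 0.64 ± 0.43 (SD, n = 3; limma adjusted p = 0.0459) lost its call without kidney replicate 1 or 3 (0.50 and 0.52) and with the medians removed (0.45). Slc25a14, a relative found mostly in brain, gave 0.45, 0.62 and 0.41 in kidney, with a mean of 0.49 ± 0.11 (SD, n = 3; limma adjusted p = 0.0162). The median of its line lay above 0 in kidney, and its mean with the medians removed was 0.21 (limma adjusted p = 0.177). The call was also lost with any kidney array left out (0.43 to 0.53). Ucp3, the uncoupling protein of muscle, was lower in kidney at -0.42, -0.67 and -0.43, with a mean of -0.51 ± 0.14 (SD, n = 3; limma adjusted p = 0.00585), and it lost its call only without kidney replicate 2 among the kidney arrays left out (-0.42). Slc25a27, a relative of neurons, averaged -0.30 ± 0.06 in kidney and -0.29 ± 0.10 in liver (SD, n = 3 each; limma adjusted p = 0.0225 and 0.0247), and both calls were lost with any array of their tissue left out.

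**Figure D3:**
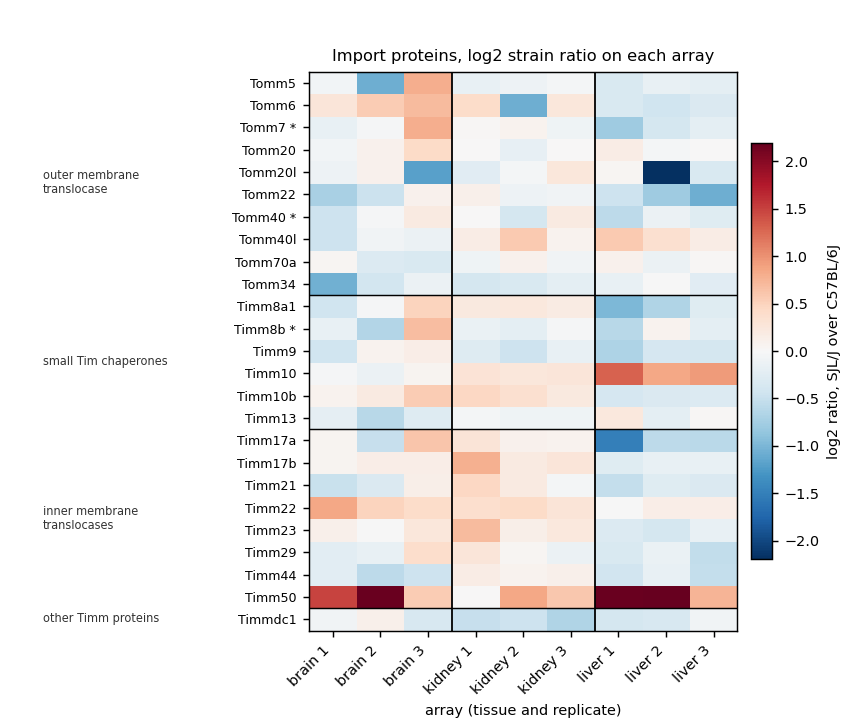
Log2 ratio (colour, SJL/J over C57BL/6J) of the 25 import proteins (rows, by role) on each of the 9 arrays (columns, by tissue and replicate); an asterisk marks a probe at a multiple of 8, and the colour scale ends at 2.2 on both sides. Timm50 is red on 8 of 9 arrays, Timm10 is red on every liver array, and Tomm20l is far below the scale's middle on liver replicate 2 (-2.94) alone among the liver arrays.

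Of the 10 Tomm proteins, 1 was called in liver, 1 in brain and none in kidney. Tomm22, the central receptor that hands proteins to the entry channel, gave -0.45, -0.79 and -1.08 in liver, with a mean of -0.77 ± 0.31 (SD, n = 3; limma adjusted p = 0.00413). Brain gave -0.72, -0.48 and 0.10, which overlaps the liver arrays, and kidney 0.12, -0.12 and -0.08, which does not. The liver call held with each liver array left out and with the medians removed (-0.83). Tomm34, a cytosolic cochaperone of import, was below 0 on 9 of 9 arrays, and its brain arrays gave -1.05, -0.41 and -0.13, with a mean of -0.53 ± 0.47 (SD, n = 3; limma adjusted p = 0.0281). That call was lost without brain replicate 1 or 2 (-0.27 and -0.59).

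The channel Tomm40, its small partners Tomm5, Tomm6 and Tomm7, the receptors Tomm20 and Tomm70a, and the relatives Tomm20l and Tomm40l were called in no tissue. Tomm20l gave 0.05, -2.94 and -0.34 in liver, so that its mean of -1.07 ± 1.63 (SD, n = 3) rests on replicate 2. Tomm20 averaged 0.04 in liver on a line whose median was 1.15, and with the medians removed it averaged -1.12 (limma adjusted p = 3.00e-04). The 2 probes of Tomm70a disagreed in brain, at -0.78 (limma adjusted p over all probes = 0.0201) and 0.39 (limma adjusted p = 0.16).

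The 6 small Timm chaperones moved apart in liver, where 3 were lower and 1 higher. Timm10, which forms the chaperone ring with Timm9, gave 1.30, 0.85 and 0.93 in liver, -0.02, -0.13 and 0.06 in brain and 0.30, 0.25 and 0.27 in kidney. The liver arrays lay above all others. The liver mean was 1.03 ± 0.24 (SD, n = 3; limma adjusted p = 3.80e-05), a 2.04-fold higher signal in SJL/J, and it held with each liver array left out and with the medians removed (1.05). Its ring partner Timm9 gave -0.68, -0.37 and -0.39 in liver, with a mean of -0.48 ± 0.18 (SD, n = 3; limma adjusted p = 0.0144), which failed without liver replicate 1 (-0.38, limma adjusted p = 0.115). Timm10b, which binds the ring to the Timm22 complex, had calls of opposite sign: it gave -0.37, -0.32 and -0.30 in liver and 0.46, 0.36 and 0.21 in kidney. Its means were -0.33 ± 0.04 and 0.34 ± 0.13 (SD, n = 3 each; limma adjusted p = 0.036 and 0.0298). Both calls were lost with any array of their tissue left out, and the liver call also with the medians removed (-0.19).

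Timm8a1, the mouse counterpart of the gene of deafness-dystonia syndrome, gave -0.98, -0.67 and -0.27 in liver, with a mean of -0.64 ± 0.36 (SD, n = 3; limma adjusted p = 0.0146). It lost its call without liver replicate 1 or 2 (-0.47 and -0.62). Timm13, which forms a second ring with Timm8 proteins, gave -0.20, -0.61 and -0.29 in brain, with a mean of -0.37 ± 0.22 (SD, n = 3; limma adjusted p = 0.0396) that failed with any brain array left out (-0.45 to -0.24). Timm8b was called in no tissue.

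Timm50, the receptor of the Timm23 complex that takes proteins over from the outer membrane, had the highest ratio of all members in brain and liver. Its arrays gave 1.48, 2.18 and 0.56 in brain, 0.00, 0.85 and 0.60 in kidney and 2.17, 2.19 and 0.75 in liver. The spread within each tissue was large and the tissues overlapped. The means were 1.41 ± 0.81 in brain, 0.48 ± 0.44 in kidney and 1.70 ± 0.83 in liver (SD, n = 3 each; limma adjusted p = 0.0118, 0.278 and 0.00273). Liver stayed called with each liver array left out (1.46 to 2.18), and brain failed without brain replicate 1 or 2 (1.37 and 1.02).

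**Figure D4:**
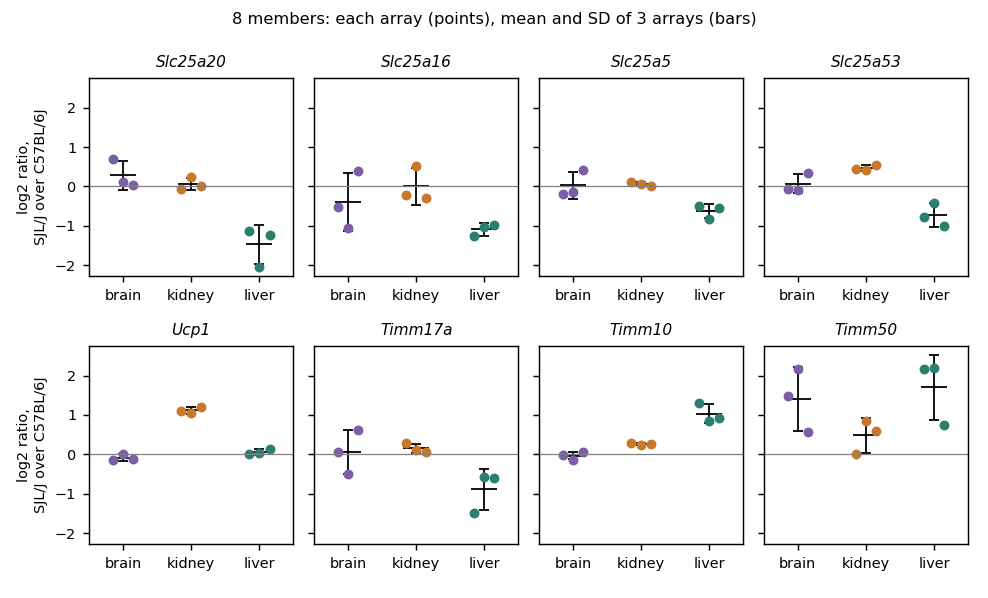
Log2 ratio (vertical axis, SJL/J over C57BL/6J) of 8 members in brain, kidney and liver (horizontal axis); points are the 3 arrays of a tissue and bars give their mean and SD. Liver lies below the other tissues for Slc25a20, Slc25a5, Slc25a53 and Timm17a and above them for Timm10, kidney stands alone for Ucp1, and the 3 arrays of Timm50 spread widely in each tissue.

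The other inner membrane proteins were mostly above 0 in kidney and below 0 in liver. All 8 inner membrane translocase proteins lay above 0 in kidney, with 3 called higher, and 6 of 8 lay below 0 in liver, with 2 called lower and Timm50 higher. Timm17a, a channel subunit of the Timm23 complex, gave -1.50, -0.58 and -0.59 in liver, 0.29, 0.10 and 0.07 in kidney and 0.06, -0.50 and 0.61 in brain. The liver arrays lay below all others. Its liver mean was -0.89 ± 0.53 (SD, n = 3; limma adjusted p = 0.00894) and failed without liver replicate 1 (-0.59, limma adjusted p = 0.0855). Its alternative subunit Timm17b averaged 0.42 ± 0.32 in kidney and Timm23, the channel itself, 0.35 ± 0.30 (SD, n = 3 each; limma adjusted p = 0.0173 and 0.0417). Both had their highest kidney value on replicate 1, without which they averaged 0.24 and 0.18 and failed, and Timm23 failed also without replicate 3 and with the medians removed (0.31).

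Timm22, the channel that inserts carriers, gave 0.85, 0.49 and 0.40 in brain and 0.37, 0.42 and 0.28 in kidney, and -0.01, 0.15 and 0.14 in liver. All brain and kidney arrays lay above the liver arrays. The means were 0.58 ± 0.24 in brain and 0.36 ± 0.07 in kidney (SD, n = 3 each; limma adjusted p = 0.00362 and 0.0221), and the brain call held with each brain array left out, while the kidney call failed with any kidney array left out (0.32 to 0.40). Timm44, which ties the import motor to the channel, gave -0.23, -0.58 and -0.45 in brain, with a mean of -0.42 ± 0.17 (limma adjusted p = 0.015), and averaged -0.37 ± 0.18 in liver (SD, n = 3 each; limma adjusted p = 0.0189). The brain call failed without brain replicate 2 (-0.34), and the liver call without liver replicate 1 or 3 (-0.34 and -0.30) and with the medians removed (-0.09). Timmdc1, an assembly factor of respiratory complex I, gave -0.51, -0.45 and -0.67 in kidney, with a mean of -0.54 ± 0.11 (SD, n = 3; limma adjusted p = 0.00423), and stayed called under every alternative tried. Timm21 and Timm29 were called in no tissue and averaged -0.37 and -0.34 in liver.

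The import motor, the processing peptidases and the assembly factors were described from a list of which 23 were measured. In liver 2 were higher and 6 lower (median -0.25), in kidney 4 higher and 1 lower (median 0.06), and in brain none was called. The shares called were 34.8% in liver, 21.7% in kidney and 0% in brain, beside 24.5%, 27.4% and 17.2% of all genes. Mtx1, of the outer membrane sorting machinery, averaged 1.03 ± 0.09 in liver, and Grpel2, a nucleotide exchange factor of the motor, -0.74 ± 0.14 (SD, n = 3). Gfer, the oxidase that folds small Timm chaperones, averaged -0.79 ± 0.07 and lies at a multiple of 8. Romo1, a small inner membrane protein, averaged -0.75 ± 0.48. Of 5 measured porins and pyruvate carriers 3 were lower in liver, with Mpc1, a subunit of the pyruvate carrier, at -0.95 ± 0.22 and the porin Vdac1 at -0.55 ± 0.18 (SD, n = 3). All 3 lie at multiples of 8, and 1 stayed called with the medians removed. Of 11 measured regulators of mitochondrial genes, 2 were lower and none higher in liver: Pprc1, a coactivator of NRF1, at -1.55 ± 0.34 and Ppara, the receptor that drives fatty acid oxidation genes in liver, at -1.43 ± 0.25 (SD, n = 3). In kidney 3 of the 11 were lower, among them Nrf1 at -1.68 ± 0.14, which lies at a multiple of 8, and Esrra at -1.06 ± 0.17 (SD, n = 3). In brain 2 of the 11 were lower, Nrf1 at -0.91 ± 0.57 and Esrra at -0.66 ± 0.10 (SD, n = 3), and none higher. The shares called of these regulators, 18.2% in liver, 27.3% in kidney and 18.2% in brain, were near or below those of all genes.

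The strain ratio was also compared between tissues, where a dye effect that a probe shows alike in both tissues cancels. Liver was lower than kidney for 16 members and higher for 3, beside 11% and 8.52% of all genes. Among these called members the 2 largest differences were those of Slc25a20 (-1.53, limma adjusted p = 0.00215) and Slc25a53 (-1.21, limma adjusted p = 0.00108). Ucp1 (-1.06) and Timm10b (-0.68) were lower and Timm10 (0.76) and Slc25a15 (0.66) higher, and these 6 stayed called with each kidney or liver array left out and under the other alternatives tried. Slc25a15 lies at a multiple of 8, so leaving out those probes could not be tried on it. Its kidney call was lost with the medians removed (-0.24), while the difference stayed called at 0.60 (limma adjusted p = 0.0243). Leaving out 1 array brought the 19 calls to between 7 and 13, lowest without kidney replicate 1. Liver against brain gave 8 calls, 2 higher and 6 lower, which is 12.7% of the members beside 11.6% of all genes. Slc25a20 (-1.75, limma adjusted p = 0.00126) and Timm10 (1.06, limma adjusted p = 8.78e-04) held under every alternative tried, and leaving out 1 array brought the count to between 3 and 10.

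Brain against kidney gave 3 calls, or 4.76% of the members beside 5.47% of all genes. They were Ucp1 (-1.20, limma adjusted p = 0.00119), Slc25a18 (0.81, limma adjusted p = 0.0125) and Timm44 (-0.54, limma adjusted p = 0.0475). Without brain replicate 2 or without kidney replicate 1 only Ucp1 passed, and without brain replicate 3 the count was 10. For Timm50 the liver and brain ratios did not pass a difference from kidney or from each other.

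Of the 63, 25 were called in no tissue, 26 in 1, 10 in 2 and 2 in all 3, or 39.7%, 41.3%, 15.9% and 3.17%, beside 49%, 36.3%, 11.2% and 3.44% of all genes. The 2 called in all 3 were Slc25a31 and Slc25a29. Calls of opposite sign in 2 tissues were found for Slc25a53, Slc25a18 and Timm10b, or 4.76% beside 2.39% of all genes. Below 0 on every array were 8 members, of which 5 lie at multiples of 8, and above 0 on every array were Slc25a37 and Slc25a39, the latter at 0.00 after rounding on liver replicate 2. When each tissue mean counted as 1 value, limma called 0 members for a ratio shared by the 3 tissues, beside 0.709% of all genes, and 9 members (14.3%) had an unadjusted p below 0.05, beside 15.9% of all genes. Slc25a29 had the lowest shared mean, -1.12 (limma adjusted p = 0.0841), and Timm50 the highest, 1.20 (limma adjusted p = 0.108).

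Some members were called in a tissue only after line and column medians were removed, 6 in brain, 4 in kidney and 7 in liver. The share of all genes that gained a call in this way is not given here. Slc25a33 was lower in brain, kidney and liver on that scale (limma adjusted p = 0.00263, 0.0036 and 0.00262), although its deposited mean was above 0 in brain and liver. Tomm20 was lower in brain (-0.77) and kidney (-0.62) as well as in liver (limma adjusted p = 0.0052 and 0.0116 for the first pair). In brain Slc25a35 (-0.46), Slc25a38 (-0.50), Tomm22 (-0.50) and Timmdc1 (-0.39) were also lower, with limma adjusted p-values of 0.0108 to 0.0467. In kidney Tomm34 and Timm9 both came to -0.46 (limma adjusted p = 0.0409 and 0.0119). In liver Slc25a25 (-0.56), Slc25a22 (-0.50) and Timmdc1 (-0.45) were lower and Slc25a15 (0.36) was higher, with limma adjusted p-values of 0.00303 to 0.0432. Apart from Slc25a33, Tomm20 and Slc25a15 in liver, the deposited means of these members had the same sign in the tissue named.

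**Figure D5:**
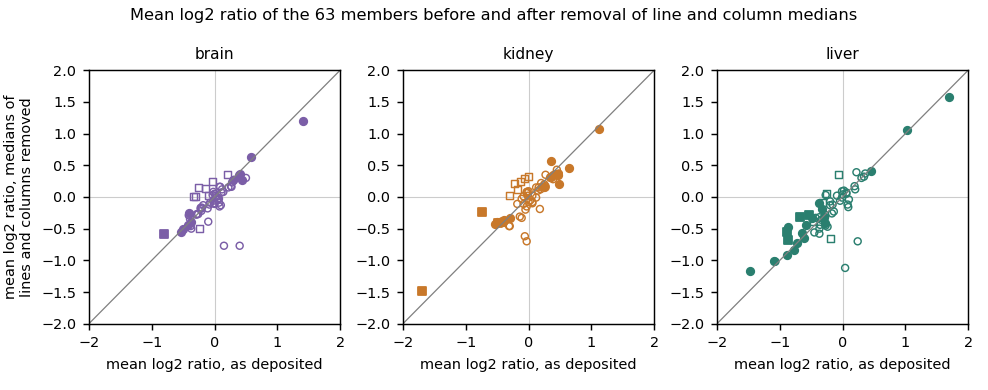
Mean log2 ratio of the 63 members as deposited (horizontal axis) and with the medians of lines of 24 probe numbers and of columns removed on each array (vertical axis), by tissue; squares are probes at multiples of 8, filled points were called as deposited, and the grey line marks equal values. Timm10 in liver and Ucp1 in kidney lie near the line. In liver Slc25a20 moves from -1.47 to -1.17 and Timm50 from 1.70 to 1.57, while Tomm20 drops from 0.04 to -1.12.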

How the data were processed

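RNA of brain, kidney and liver of SJL/J and C57BL/6J mice was compared on 9 arrays, 3 per tissue. The deposited table holds log2 ratios alone, 1 per spot and array, made by the authors with R 2.0.0 and limma per the submitters' processing notes; the log base is limma's convention and is not stated. Its 9 columns have identical sorted values (median 0.01, range -3.91 to 5.09), so all arrays share one distribution and a shift of most genes cannot be seen. No signal, background or flag was used here. Arrays were grouped by title.

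The platform annotation gave 16874 probes a single symbol, 134 several and 6032 none; the gene IDs of 16196 matched RefSeq's table and no symbol changed. Probes of a gene were averaged, and limma 3.58.1 in R 4.3.3 (lmFit, eBayes) fitted 1 mean per tissue over all 9 arrays and 15096 genes, with 6 residual degrees of freedom, a two-sided test against 0 or between tissues, and Benjamini-Hochberg adjustment over all genes at 0.05. A ratio shared by the tissues was tested on the 3 tissue means. The fit was tested on simulated data. The number of arrays limits the precision.

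Named in full were, per tissue, the called members with the largest absolute means, at most 10, and members with opposite calls; of other lists, at most 4 called genes each. Members, lists and rules were chosen with earlier results of these data known. Motifs were searched in RefSeq promoters (GRCm38.p6), 250 bases before the start. Alternatives removed the medians of lines and columns, left out multiples of 8 or single arrays, took probes singly or by their median, recentred arrays, added a replicate block, array weights or a robust prior, or used a tissue's arrays alone.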

Additional observations from a re-analysis of the deposited data

Results flagged for a closer look

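Members whose strain ratio differed between tissues by limma's test of the difference itself are given here, at most the 10 largest per pair. Liver against kidney had 19 calls, or 30.2% of the members beside 19.5% of all genes, so its list is cut. Liver against brain (12.7% beside 11.6%) and brain against kidney (4.76% beside 5.47%) are listed whole. Between liver and kidney these differences of log2 ratio were Slc25a20 -1.53, Slc25a53 -1.21, Slc25a16 -1.09, Ucp1 -1.06, Timm17a -1.04, Slc25a30 -0.99, Slc25a25 -0.93, Timm8a1 -0.84, Timm10 0.76 and Tomm22 -0.75. Their limma adjusted p-values lie between 2.40e-04 (Ucp1) and 0.0401 (Slc25a30). Slc25a20, Slc25a53, Ucp1 and Timm10 kept their calls with each kidney or liver array left out. The other listed members lost theirs in some of these fits, and Slc25a16 lost it in all of them. Slc25a25, which was called in no tissue, averaged 0.48 ± 0.58 in kidney and -0.45 ± 0.18 in liver (SD, n = 3 each).

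Between liver and brain the differences were Slc25a20 -1.75, Timm10 1.06, Slc25a53 -0.80, Slc25a12 0.71, Slc25a5 -0.64, Timm10b -0.61, Slc25a18 -0.56 and Timm22 -0.48. Between brain and kidney they were Ucp1 -1.20, Slc25a18 0.81 and Timm44 -0.54. Limma's adjusted p was highest for Timm22 (0.0487) and Timm44 (0.0475). With each array of the tissues compared left out in turn, Timm22 stayed called in 1 of 6 fits and Timm44 in 2 of 6. In every such fit Slc25a20, Timm10 and Slc25a53 stayed called between liver and brain, and Ucp1 between brain and kidney.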

How the results depend on the processing

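No named call changed sign under an alternative tried. Of 1065 comparisons of a named call with an alternative, 824 stayed called and 241 did not. That count pools unlike alternatives. Taking probes by their median leaves the members' ratios as they were, and neither it nor the robust prior ended a call. With 1 array of the tissue left out, 2 to 6 of the 12 brain calls stayed, 5 to 10 of the 19 in kidney and 13 to 15 of the 21 in liver. With each array of the tissues compared left out in turn, the calls numbered 2 to 11 in brain, 6 to 10 in kidney, 13 to 15 in liver, 7 to 13 for liver minus kidney, 3 to 10 for liver minus brain and 1 to 10 for brain minus kidney. The carriers' median moved between -0.03 and 0.06 in kidney and between -0.24 and -0.10 in liver, and that of the import proteins between 0.01 and 0.10 in kidney. Over all alternatives the brain and kidney medians, which lie near 0, took either sign: the import proteins' brain median of -0.04 ran from -0.18 without brain replicate 3 to 0.05 without brain replicate 1, and the carriers' from -0.08 to 0.06. The liver medians stayed below 0, at -0.27 to -0.10 and -0.30 to -0.21. With the brain arrays alone 0 members were called in brain, and array weights gave 11 calls for brain minus kidney. For the ratio shared by the tissues, 1 member (Slc25a33) was called once line and column medians were removed and 1 (Slc25a29) with each probe on its own. The import proteins' kidney median was 0.10 with those medians removed and 0.09 without multiples of 8, where the carriers' was 0.06. The cause was not tested. Removing the medians lost 4 of 12 calls in brain, 8 of 19 in kidney and 6 of 21 in liver.

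Replicate numbers do not pair the arrays: of 9 same-number pairs across tissues 0 had deviations correlated above 0.1, and 1 of 9 arrays correlated best with its own number. With the replicate block the calls numbered 10 in brain, 17 in kidney, 20 in liver, 15 for liver minus kidney, 8 for liver minus brain and 2 for brain minus kidney.

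Signal over background was not used here, so which ratios come from dim spots was not tested. Leaving out an array also lowers the degrees of freedom, and the part of this in the lost calls was not tested. Calls were not always lost: without brain replicate 3 those for brain minus kidney rose. The share of all genes called in brain rose there too.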
